A study of Schizosaccharomyces pombe with 4 samples.

Results

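The XUTs that do not run antisense to a protein-coding gene, called solo XUTs in the study, were examined in nascent and total RNA of wild-type *Schizosaccharomyces pombe*. A XUT was counted as solo when no gene on the other strand overlapped it by 50 nt or more. This left 433 of 1638 XUTs, against 1205 XUTs antisense to a gene (asXUTs), among 9111 annotated units. The rule that picked members among the XUTs used positions and no measured value, but it was set with earlier results of these data known. The cells were of strain YAM2492, in which Rpb3, a subunit of RNA polymerase II (RNAPII), carries a FLAG tag (rpb3-flag). They were wild-type otherwise, they grew exponentially in rich medium, and all 4 libraries share that tag. There were 2 IP libraries, made from the nascent RNA that came down with tagged RNAPII, and 2 input libraries, made from total RNA. Each kind is numbered as biological replicates 1 and 2.

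XUTs are long noncoding RNAs that the cytoplasmic exonuclease Xrn1 (Exo2 in fission yeast) removes by 5′ to 3′ decay, so they are transcribed but hard to see in steady-state RNA. NET-seq reads the 3′ ends of RNA still held by elongating RNAPII, so it registers a transcript before decay acts on it. The study defined XUTs on other libraries, as segments that accumulated in cells without Exo2. A low level in wild-type total RNA is therefore part of what a XUT is, and not a finding here.

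Reads of tRNA, which RNA polymerase III makes, were 5.59% and 5.79% of the implied reads of the IP libraries, against 94.5% and 89.9% of those of the input libraries. The depth implied by the table was 7100000 and 7117477 reads for the IP libraries and 9082385 and 9823089 for the input libraries. Levels below are in RPKM (reads scaled by unit length and library size), on a scale anchored to the first of those depths. A change between IP and input is thus a change in the share of a library, and fewer cells with a transcript cannot be told apart from less RNA per cell.

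The solo XUTs lay on chromosomes I (165 members), II (160) and III (98), on an unplaced contig (7), at the mating-type region (2) and on the mitochondrial genome (1). They made up 23.3% of the XUTs of chromosome I, 26.2% of those of II and 31.5% of those of III. Their median length was 518 nt, against 564 nt for asXUTs. Most had a neighbour close by. The 5′ ends of 161 members lay within 500 nt of the 5′ end of a gene pointing the other way (divergent), and 123 ended within 500 nt before a gene on the same strand (tandem). The 3′ ends of 59 members lay within 500 nt of that of an opposing gene (convergent). A further class, called downstream, held 43 members placed after a same-strand gene. These began within 500 nt past the end of that gene, or inside it and ran past its end. An annotated ncRNA, or a transcription unit of the later annotation (nc-TU), lay over 183 members on the same strand, and 175 faced an ncRNA, nc-TU or another XUT on the other strand. A member can be in several of these classes, and 57 were in none. The classes do not cover a gene, tRNA or pseudogene lying over a member on its own strand. Of the 57, 36 shared no nucleotide with another unit on their strand.

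Sequences are shown for 2 sets of members on which the results below turn, from the RefSeq genome ASM294v3. In that genome, 5113 of 5119 coding sequences of the deposited table (99.9%) read as complete open reading frames at their own coordinates, and all 171 tRNAs compared were at identical positions. The first set is 3 members that begin inside a tRNA gene. They are given whole, 5′ to 3′, with the nucleotides that they share with the tRNA in capitals. XUT1375 (I:1421176-1421399, plus strand) begins within tRNA-Cys, XUT0616 (I:2844462-2844730, minus strand) within tRNA-Thr and XUT0535 (I:1646096-1646315, minus strand) within tRNA-Gly.
XUT1375: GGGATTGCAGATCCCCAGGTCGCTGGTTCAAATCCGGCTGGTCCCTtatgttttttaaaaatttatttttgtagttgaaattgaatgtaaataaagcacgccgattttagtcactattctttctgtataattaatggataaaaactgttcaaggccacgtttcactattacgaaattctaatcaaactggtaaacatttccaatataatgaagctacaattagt
XUT0616: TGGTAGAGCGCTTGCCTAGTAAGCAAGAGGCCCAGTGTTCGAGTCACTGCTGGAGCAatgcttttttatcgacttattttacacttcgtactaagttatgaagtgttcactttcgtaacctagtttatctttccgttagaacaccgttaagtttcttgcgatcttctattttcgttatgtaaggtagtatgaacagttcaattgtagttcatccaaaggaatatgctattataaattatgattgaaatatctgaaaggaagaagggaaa
XUT0535: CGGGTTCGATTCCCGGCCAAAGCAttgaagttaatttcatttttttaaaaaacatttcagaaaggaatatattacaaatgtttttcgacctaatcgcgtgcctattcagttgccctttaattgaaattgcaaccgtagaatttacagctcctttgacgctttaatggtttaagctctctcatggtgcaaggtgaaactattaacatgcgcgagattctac

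The second set is the stretch from the base after an upstream gene to base 50 of the XUT that follows it, for 3 members with some of the widest gaps between IP and input. The lower-case part is the interval between both units and the capitals are the first 50 bases of the XUT. XUT0214 (II:625794-626003, minus strand) follows tef103, which encodes translation elongation factor EF-1 alpha. XUT0048 (III:506154-506349, minus strand) follows rpl3601, which encodes the 60S ribosomal protein L36. XUT1604 (I:5145516-5145731, plus strand) follows SPAC29A4.02c, which encodes the EF-1 gamma subunit.
XUT0214: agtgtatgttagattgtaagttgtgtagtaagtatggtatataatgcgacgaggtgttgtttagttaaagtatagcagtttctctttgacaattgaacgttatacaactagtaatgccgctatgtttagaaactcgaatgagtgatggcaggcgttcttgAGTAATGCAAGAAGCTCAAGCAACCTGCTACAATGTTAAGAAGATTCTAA
XUT0048: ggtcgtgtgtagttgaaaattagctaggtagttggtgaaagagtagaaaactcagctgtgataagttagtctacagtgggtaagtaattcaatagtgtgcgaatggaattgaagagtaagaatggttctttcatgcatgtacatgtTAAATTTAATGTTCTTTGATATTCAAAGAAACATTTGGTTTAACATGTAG
XUT1604: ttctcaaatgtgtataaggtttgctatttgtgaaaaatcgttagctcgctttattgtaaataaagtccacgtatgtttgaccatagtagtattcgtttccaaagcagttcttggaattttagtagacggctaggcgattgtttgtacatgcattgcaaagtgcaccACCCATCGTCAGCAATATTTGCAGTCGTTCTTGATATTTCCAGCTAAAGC

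Solo XUTs were poorer in G and C than asXUTs and genes, and close to annotated ncRNAs. Their median GC content was 33.7% (all 423 members on chromosomes I to III), against 36.8% in asXUTs and 36.7% in genes. It was 34.9% in annotated ncRNAs and 39.4% in nc-TUs. The letters TATAAA were searched on the strand of the unit in the 100 nt before its start. They were present for 11.8% of solo XUTs, 8.46% of asXUTs, 10.3% of ncRNAs, 9.65% of nc-TUs and 12.6% of genes. AATAAA was found in the last 100 nt of 17.7% of solo XUTs, against 16.9% of asXUTs and 25.4% of genes. For ncRNAs and nc-TUs it was 24.5% and 9.65%. These shares are descriptions of the windows and were not tested.

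Most solo XUTs were present in nascent RNA at a low level, and most were absent or almost absent from total RNA. Their median level was 2.24 and 2.25 RPKM in the IP libraries and 0 RPKM in both input libraries. In IP, 72.5% and 69.5% of them exceeded 1 RPKM, the level at which the study calls a region transcribed, and by the mean of both libraries it was 311 of 433 (71.8%). In input, 16 and 24 members exceeded 1 RPKM (3.70% and 5.54%). The shares were 1.58% and 2.99% for asXUTs, 47.0% and 70.1% for genes, and 30.8% and 44.9% for all units. No input read at all was found for 203 members. At most 3 reads in each input library were found for 369 members (85.2%), against 83.7% of asXUTs, so this was shared with asXUTs. At this depth 3 reads on 1 kb correspond to 0.423 and 0.421 RPKM in IP and 0.33 and 0.305 RPKM in input, so the input level of most members is below what could be measured.

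The range in nascent RNA was wide. The mean IP level was below 1 RPKM for 122 members, from 1 to 10 RPKM for 246, from 10 to 100 RPKM for 55 and above 100 RPKM for 10, and the highest was 476 RPKM. The IP replicates ranked the members alike (Spearman 0.90, Pearson 0.95 on the log2 scale, n = 433 regions in the same libraries), and 403 (93.1%) were within 2-fold of each other. Input replicates ranked them less closely (Spearman 0.51), where counts are few. The unit with the highest level in the IP libraries, XUT0265, and those that follow it are shown in the plot of IP against input levels.

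**Figure D1:**
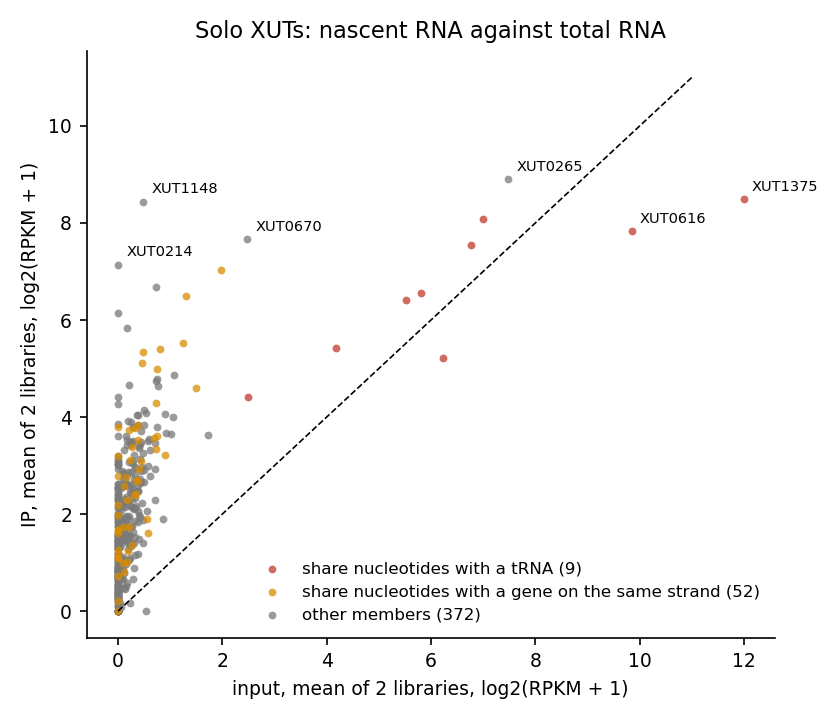
Mean level of each of the 433 solo XUTs in the 2 IP libraries (vertical axis) against the 2 input libraries (horizontal axis), both as log2(RPKM + 1); each point is 1 member and the dashed line marks equal levels. Most points stand along the vertical axis at or near 0 in input, and the 9 members that share nucleotides with a tRNA (red) hold most of the high input levels, with XUT1375 and XUT0616 below the line.

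Solo XUTs had a somewhat lower median level than asXUTs, which turned round away from the chromosome ends, and both were far below genes. Against their median of 2.24 and 2.25 RPKM in IP, asXUTs had 3.03 and 2.67 RPKM, annotated ncRNAs 3.65 and 3.19 RPKM, nc-TUs 4.96 and 4.57 RPKM, and genes 26.1 and 24.6 RPKM. The difference of the medians, solo minus antisense, was -0.32 and -0.18 on the log2(RPKM + 1) scale in the IP libraries. Both libraries gave the same sign, and the difference was not tested. On chromosomes I and II, more than 100 kb from an end, solo XUTs were instead the higher, with 3.49 and 3.10 RPKM, against 3.24 and 2.84 RPKM for asXUTs, a subset taken after the values were seen. Reads over shared nucleotides may count for several units. Among members that share no nucleotide with another unit on their strand, the median was 1.53 and 1.29 RPKM (192 solo XUTs), against 1.94 and 1.89 RPKM (624 asXUTs).

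**Figure D2:**
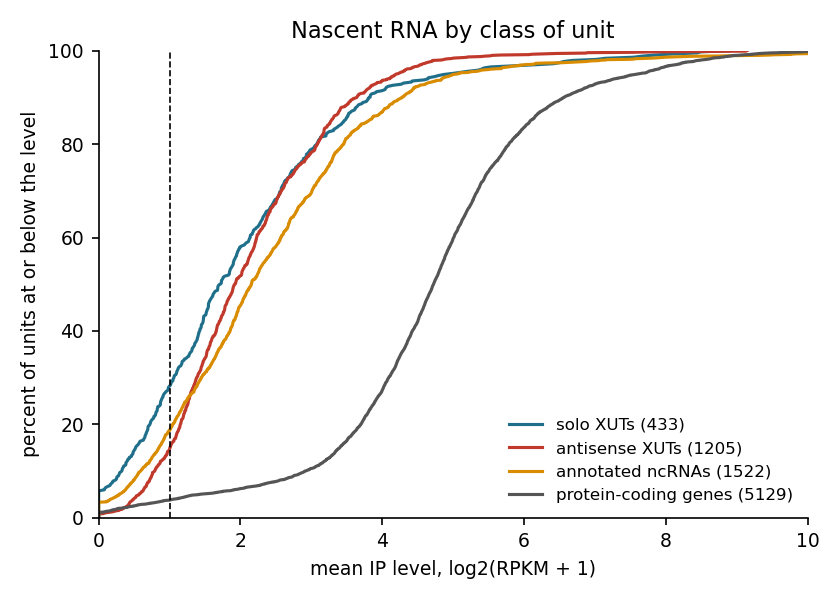
Cumulative percent of units (vertical axis) at or below a given mean IP level (horizontal axis, log2(RPKM + 1)) for 433 solo XUTs, 1205 antisense XUTs, 1522 annotated ncRNAs and 5129 protein-coding genes; the dashed line marks 1 RPKM. The curve of solo XUTs lies left of the others at low levels, with 71.8% of members above 1 RPKM against 85.3% of antisense XUTs and 96.2% of genes.

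Most solo XUTs took a larger share of the IP libraries than of the input libraries. The mean was higher in IP for 404 members and lower for 5, and both IP values were above both input values for 367. With limma and Benjamini-Hochberg adjustment at 0.05, fitted on log2(RPKM + 1) over all 8912 units with a read, 338 of the 409 members tested (82.6%) were higher in IP and 2 (0.489%) were lower. Of all units tested, 92.8% were higher and 0.92% lower, so a call in IP was no more frequent among solo XUTs than in the table as a whole. The other 24 members had no read in any library. The median change was 1.56 for solo XUTs, against 1.74 for asXUTs and 3.28 for genes, on a scale that understates the change of low units.

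The sign of this median, and its order among the classes, differed between scales. Genes as a whole had a larger share of the IP libraries, where tRNA had a smaller one. Once the fit was centred on the median gene, the median change of solo XUTs was -1.94, with 18 higher and 346 lower. That fit keeps the added 1 RPKM. A member low in IP cannot reach the change of the median gene on it, even without an input read. These lower calls thus do not show that solo XUTs lost share relative to genes. On the whole reads recovered from the table, edgeR with TMM scaling and the same adjustment called 28 members higher (6.85%) and 12 lower (2.93%), where 14.7% of all units were called higher and 14.7% lower. All 28 were also higher in limma, and 18 of them lay over an annotated ncRNA or nc-TU. The edgeR median was 1.66 for solo XUTs, 1.48 for asXUTs and 0.07 for genes, the reverse of the limma order, though fitted changes of members at 0 in input depend on the prior count. The ratio of pooled reads, per read on genes and with members at 0 in input set to the floor of 3 reads, had a median of 0.52 on the log2 scale over the 357 members above the floor in a group.

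Counted together, solo XUT reads were 0.268% and 0.256% of the IP libraries and 0.107% and 0.172% of the input libraries. The 9 members that share nucleotides with a tRNA held 14.2% and 13.4% of these reads in IP, against 91.6% in each input library. Without these 9, solo XUTs had 4.68 and 4.62 reads per 1000 reads of genes free of small RNAs in IP, against 2.70 and 2.16 in input, a ratio of 1.73 in replicate 1 and 2.13 in replicate 2. The 192 members that share no nucleotide with another unit on their strand had 0.759 and 0.719 reads per 1000 gene reads in IP, against 0.221 and 0.197 in input, a ratio of 3.54. For units without small RNAs, the ratio of the means was 1.91 for solo XUTs and 2.76 for asXUTs. In the solo sum, XUT0265 alone held 439 and 693 of the 819 and 1419 input reads. In IP it held 1065 and 1196 of 16305 and 15748 reads. No ratio was taken without XUT0265, so the order of solo XUTs and asXUTs is not settled by these ratios. No ratio was taken for asXUTs that share no nucleotide. These sums describe the libraries and were not tested.

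The solo XUTs that begin just downstream of a highly transcribed gene reached some of the highest nascent levels among members clear of tRNAs. The study reports nascent signal well past the 3′ ends of mRNAs. Whether the IP reads of downstream XUTs come from transcription of the gene before them was not tested. As a class, the 43 downstream members had a median of 5.87 and 5.27 RPKM in IP, against 2.05 and 2.07 RPKM for the 390 others. The difference was 1.17 and 1.03 on the log2(RPKM + 1) scale, in the same direction in both libraries. In input the medians were 0 and 0.0902 RPKM for downstream members and 0 in both libraries for the others. With limma, 36 of 41 downstream members tested were higher in IP and 0 lower, beside the background of 92.8% given above. edgeR called 6 of 41 (14.6%) higher, near the 14.7% of all units, and 2 lower (XUT0265 and XUT0038), where 14.7% of all units were lower.

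**Figure D3:**
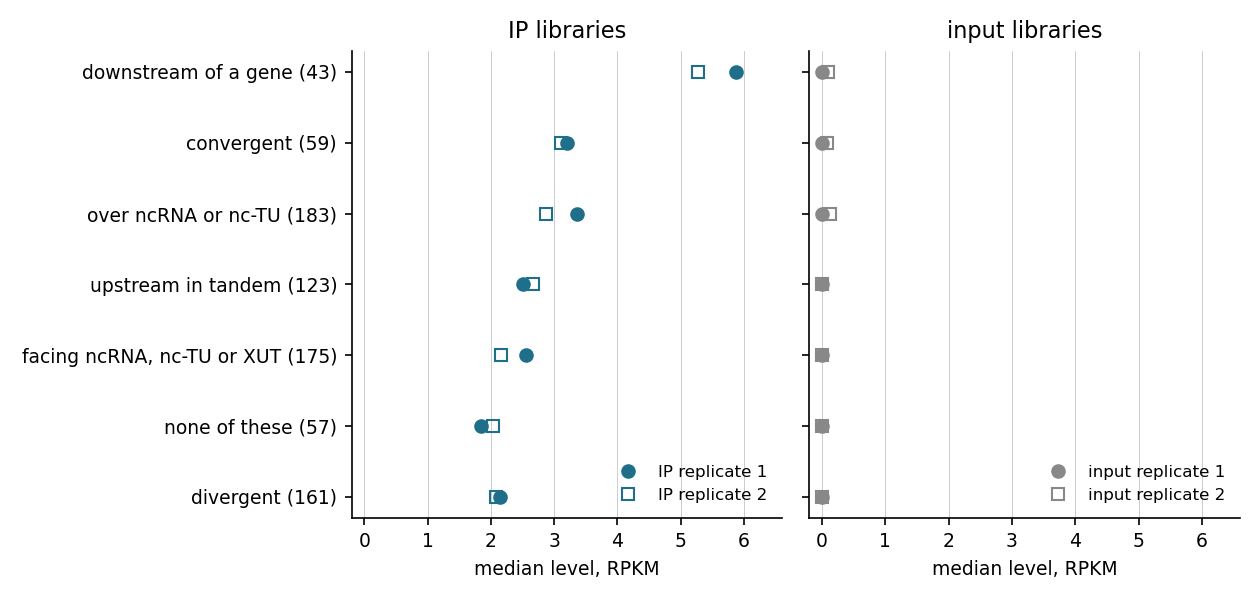
Median level in RPKM of solo XUTs by position relative to genes and other units, with 1 point for each IP library (left panel) and each input library (right panel); the number of members is in brackets, and a member can be in several classes. Downstream members stand at 5.87 and 5.27 RPKM in IP, the other classes lie between 1.84 and 3.37 RPKM, and all input medians are near 0.

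XUT1148 (II:2809195-2809736, plus strand) begins 144 nt past the end of tdh1, which encodes the glycolytic enzyme glyceraldehyde-3-phosphate dehydrogenase. It had 1415 and 1254 reads in IP and 2 reads in each input library, that is 368 and 325 RPKM against 0.406 and 0.376 RPKM. The groups lie far apart and the ratio of the pooled shares was 887 (95% exact interval of counting error 346 to 3259), with a limma log2 change of 7.96 ± 0.25 (SE, adjusted p = 0.000632). tdh1 itself had 3348 and 3973 RPKM in IP and 518 and 1104 RPKM in input. Thus both units were abundant in nascent RNA, while in total RNA the gene stayed abundant and the XUT was at 2 reads a library. XUT1148 lies within SPNCRNA.1551, an ncRNA that RefSeq annotates as a possible alternative UTR, so its reads may belong to that unit as well.

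XUT0214, after tef103, had 334 and 358 reads in IP and none in input. Its IP level of 136 and 145 RPKM was close to that of tef103, at 153 and 143 RPKM, but tef103 kept 28.0 and 48.8 RPKM in input. Only uniquely mapped reads were counted, and what this does to the levels of tef103 and the other genes named here was not tested. Against a floor of 3 reads over both input libraries the share of XUT0214 was at least 307-fold higher in IP (limma log2 change 7.14, adjusted p = 0.000632). It lies whole within the ncRNA SPNCRNA.1375, which had 251 and 258 RPKM in IP.

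XUT0048, after rpl3601, also had no input read, against 324 and 353 reads in IP. It reached 67.2 and 73.0 RPKM in IP, where rpl3601 had 340 and 310.0 RPKM. The share of the XUT was at least 300.1-fold higher in IP than the floor in input. XUT1604, after SPAC29A4.02c, had 330 and 229 reads in IP, against 1 and 4 in input, a pooled ratio of 149 (63.3 to 460). Both XUT0048 and XUT1604 share no nucleotide with any unit of the table on their strand, so no annotation overlaps them there. Whether their reads come from transcription running on from the gene before them was not tested.

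XUT0093 (III:1410563-1410958, minus strand) begins 186 nt past hta1, which encodes histone H2A alpha. It had 185 and 133 reads in IP, against 0 and 1 in input, with a pooled ratio of 423 and a wide counting interval of 75.4 to 16754. It faces XUT0878, another solo XUT, which had 44 and 45 reads in IP and none in input. hta1 had 352 and 388 RPKM in IP, against 65.8 and 47.2 RPKM for XUT0093. XUT0134, after the thioredoxin peroxidase gene tpx1 (named after its values were seen), repeated the pattern on a smaller scale, with 66 and 40 reads in IP and 0 in both input libraries.

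XUT0265 (II:1557717-1558050, minus strand), the highest of all solo XUTs in IP, differed from these. It begins 129 nt past rpl26, which encodes a 60S ribosomal protein, and lies over SPNCRNA.1444. It had 449 and 503 RPKM in IP, and 145 and 211 RPKM in input. Its gene had 574 and 501 RPKM in IP, and 103 and 204 RPKM in input, so the XUT and rpl26 were about level in both kinds of library. limma placed XUT0265 higher in IP by 1.44 (adjusted p = 0.0205, and 0.0838 with the replicate block), whereas edgeR with TMM placed it lower, by -2.65 on the log2 scale.

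**Figure D4:**
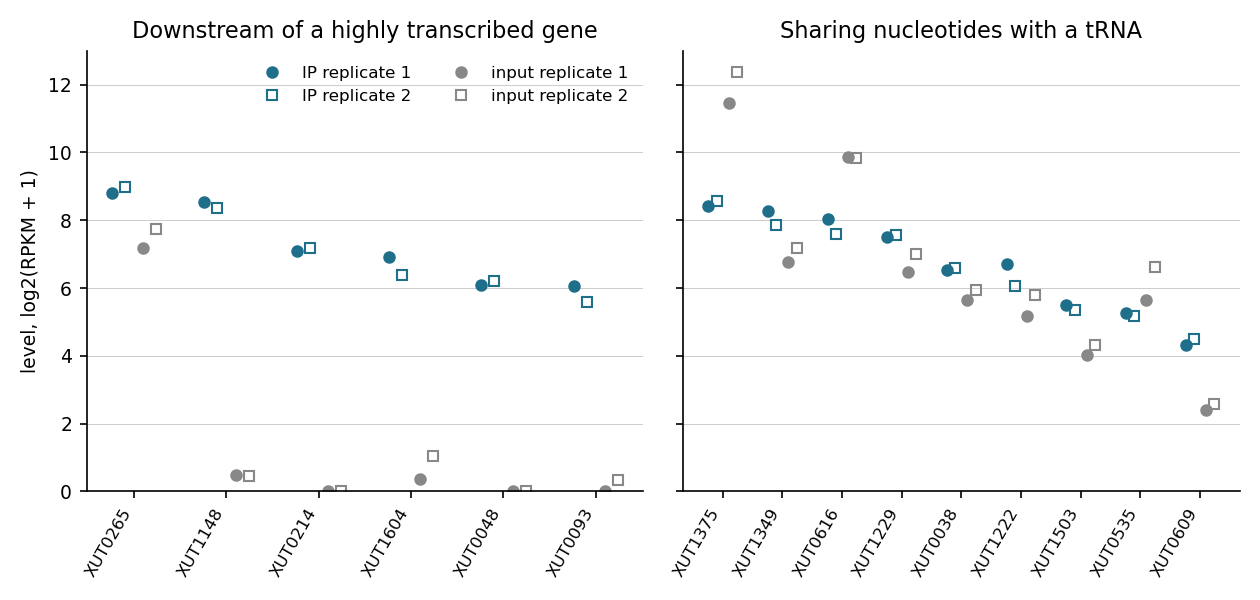
Level in each library, as log2(RPKM + 1), of 6 solo XUTs that follow a highly transcribed gene (left panel) and of the 9 that share nucleotides with a tRNA (right panel); blue marks IP, grey marks input, filled circles replicate 1 and open squares replicate 2. In the left panel IP lies far above input for every member but XUT0265, whose input values are high, and in the right panel XUT1375, XUT0616 and XUT0535 have input above IP.

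Across the 43 pairs, the downstream XUT was mostly lower than the gene before it, and higher where that gene was higher. The median log2 ratio of XUT to gene, on values plus 1 RPKM, was -1.80 and -1.48 in IP, and -0.72 and -0.88 in input. The XUT exceeded its gene in 8 and 10 pairs in IP. The levels of XUT and gene were related in IP (Pearson 0.70 and 0.68 on the log2 scale, Spearman 0.55 and 0.55, n = 43 pairs within 1 library). In input, Pearson was 0.28 and 0.26 and Spearman 0.18 and 0.06, but 28 and 19 of the 43 XUTs had no read there. Low counts and the added 1 RPKM limit the input correlations and ratios, so they cannot be set against those in IP. In the 21 pairs whose XUT shares no nucleotide, Pearson was 0.80 and 0.78 in IP. After the 22 more highly transcribed genes, the XUTs had medians of 10.9 and 9.54 RPKM, against 3.90 and 3.45 RPKM after the 21 others.

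**Figure D5:**
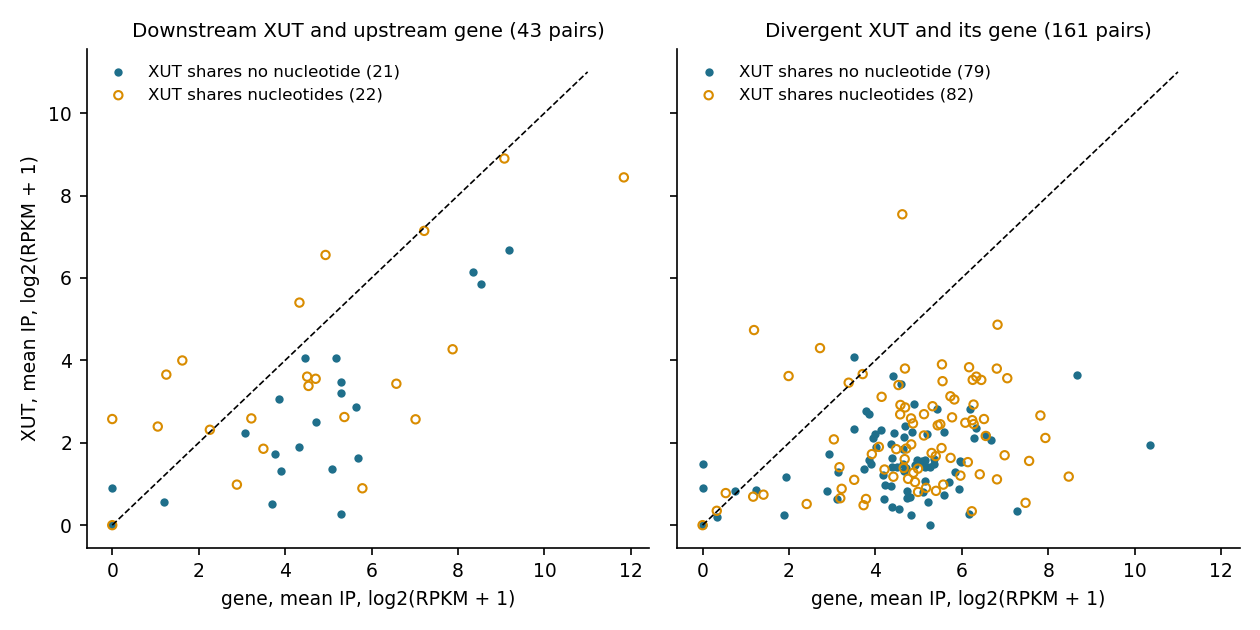
Mean IP level of a solo XUT (vertical axis) against that of its neighbouring gene (horizontal axis), both as log2(RPKM + 1), for 43 downstream pairs (left panel) and 161 divergent pairs (right panel); filled points are XUTs that share no nucleotide with another unit on their strand, and the dashed line marks equal levels. Downstream XUTs rise with their gene (Pearson 0.70 and 0.68 in the IP libraries), whereas most divergent XUTs spread over the same low range whatever the gene (0.23 and 0.24).

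Divergent and tandem XUTs followed their genes far less. The 161 divergent members had medians of 2.15 and 2.07 RPKM in IP, against 28.1 and 26.0 RPKM for the genes they point away from, and a median log2 ratio of -3.01 and -3.04. Their correlation with those genes was weak in IP (Spearman 0.24 and 0.26, n = 161 pairs). The 123 tandem members had a log2 ratio of -2.43 and -2.53 to the gene that follows them, with Spearman 0.09 and 0.17. The difference between these correlations and that of downstream pairs was not tested.

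XUT1209 (II:3620625-3622411, plus strand) was among the highest divergent members. It starts 156 nt from the start of rps1801, which encodes a 40S ribosomal protein, and it had 28.9 and 27.4 RPKM in IP, against 0.370 and 1.82 RPKM in input. rps1801 had 112 and 113 RPKM in IP. The XUT ends 169 nt before mbx2, which encodes a MADS-box transcription factor and had 4.61 and 5.06 RPKM. The RNA from this interval was thus well above the gene it runs toward, and below the gene it runs away from. XUT1229, the highest divergent member, carries a tRNA-Leu and is described with the tRNA-sharing members.

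XUT0440 (II:4464247-4466282, minus strand) was among the divergent members above their gene in IP, of which there were 10 in replicate 1 and 11 in replicate 2. It covers most of the lncRNA nam3 and starts 235 nt from SPBPB2B2.05, which encodes a glutamine amidotransferase family protein. It had 25.5 and 25.7 RPKM in IP and 0.595 and 0.700 RPKM in input, against 1.03 and 1.54 RPKM for SPBPB2B2.05 in IP. limma gave a change of 4.02 ± 0.17 (SE, adjusted p = 0.000632), and edgeR also called it higher.

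XUT0440 was also the highest of the members near the chromosome ends. Solo XUTs were common there: 55 of 325 on chromosomes I and II (16.9%) lay within 100 kb of an end, against 3.02% of asXUTs and 2.97% of genes. Their nascent level was low, with medians of 0.229 and 0.294 RPKM, and 12 exceeded 1 RPKM. Other units near the ends were low as well, with 0.479 and 0.351 RPKM for asXUTs and 0.164 and 0.287 RPKM for genes. After XUT0440 the highest were XUT0447, with 7.13 and 5.36 RPKM, and XUT0783, with 5.37 and 6.69 RPKM. Only uniquely mapped reads were counted, and what this does to levels near the ends, where sequences repeat, was not tested. The class and these names were taken after the values were seen.

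The 9 members that share nucleotides with a tRNA held most solo XUT reads of the input. They had medians of 104 and 95.7 RPKM in IP, and 49.5 and 97.6 RPKM in input, and edgeR called all 9 lower in IP. XUT1375 had 539 and 602 reads in IP, against 5728 and 11714 in input. The tRNA-Cys row, with which it shares the 46 capital letters printed above out of 224 nt, had 527 and 596 reads in IP, against 5728 and 11709 in input, close to the XUT in every library. The counts were also close for XUT0616, with 500 and 370 reads in IP, against 2262 and 2406 in input, where tRNA-Thr had 449 and 338 in IP and 2262 and 2402 in input.

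XUT1375 and XUT0616 were the only members that limma called lower in IP, by -3.43 for XUT1375 (adjusted p = 0.00214) and -2.02 for XUT0616 (adjusted p = 0.00524). The call of XUT0616 was lost without IP replicate 1 (adjusted p = 0.0591) or IP replicate 2 (0.0869). XUT0535 had 58 and 55 reads in IP, against 99 and 211 in input, and tRNA-Gly 51 and 60 in IP and 101 and 213 in input, so that the tRNA row had more reads than the XUT in 3 of 4 libraries. How a read over both units was counted is not given in the sources used here, so the tRNA counts are not a known part of the XUT counts.

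The other tRNA-sharing members varied in how their counts stood against those of the tRNA. XUT1229 had 336 and 353 reads in IP and the tRNA-Leu row 112 and 119, and in input the XUT had 208 and 326 reads and the tRNA row 123 and 188. XUT1229 thus exceeded its tRNA in every library, most of all in IP. XUT0038, XUT1222, XUT1503 and XUT0609 share 58 to 74 nt with a tRNA for Phe, Lys, Phe and Lys. XUT1349 shares 168 nt with tRNA-Ser and tRNA-Met, and had 605 and 453 reads in IP, against 271 and 390 in input. The rows of both tRNAs together had 591 and 447 reads in IP, against 269 and 388 in input, nearly the counts of the XUT. limma called XUT0609 higher in IP by 1.92, XUT1503 by 1.26 (adjusted p = 0.0141, and 0.0902 with the replicate block) and XUT1349 by 1.09 (adjusted p = 0.0486, and 0.205 with the block).

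Another 52 members share nucleotides with a gene on their own strand. XUTs were defined as segments outside open reading frames. The overlap here was taken with whole gene units and not with coding segments, and the study also counted XUTs that overlap untranslated regions. Which part of a gene was shared was not tested. Their medians were 5.30 and 5.15 RPKM in IP, against 2.02 and 2.09 RPKM for the 381 members that do not. XUT1227 lies almost wholly within the unit of ssn6, which encodes a transcriptional corepressor, and had 122 and 136 RPKM in IP and 1.74 and 4.11 RPKM in input. ssn6 itself had 93.1 and 95.8 RPKM in IP, and 2.25 and 4.93 RPKM in input. Reads of the gene and of the XUT cannot be told apart here.

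XUT1071, within scr1 (a glucose-sensing transcriptional repressor), had 80.6 and 98.8 RPKM in IP and 1.10 and 1.84 RPKM in input. XUT0589, within msa1 (an RNA-binding protein), had 46.0 and 44.1 RPKM in IP and 0.699 and 2.03 RPKM in input. Both exceeded the gene around them in IP, where scr1 had 71.1 and 75.8 RPKM and msa1 33.3 and 31.5 RPKM. XUT0233, within gap1 (a GTPase-activating protein), had 19.6 and 26.6 RPKM in IP, below the 33.8 and 33.5 RPKM of the gene.

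Few members free of tRNAs and genes were seen in total RNA. A mean of at least 1 RPKM in input was reached by 19 members, of which 9 share a tRNA and 4 a gene. Of the rest, XUT0265 and XUT1209 are described above, and XUT0086 lies over the pseudogene SPCC132.05c, with 17.9 and 12.0 RPKM in IP and 0.779 and 1.38 RPKM in input. XUT0670 (I:3573332-3573939, minus strand) had 191 and 212 RPKM in IP and 2.72 and 6.36 RPKM in input, a pooled ratio of 43.7. It lies over an nc-TU and ends 987 nt before csx1, which encodes an RNA-binding protein and had 179 and 242 RPKM in IP, near the level of the XUT.

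XUT1059, over another nc-TU, had 12.7 and 10.5 RPKM in IP and 1.01 and 1.06 RPKM in input. XUT0001, on the mitochondrial genome and divergent from cox1 (a subunit of cytochrome oxidase), had 10.1 and 12.8 RPKM in IP and 1.22 and 3.40 RPKM in input. Mitochondrial genes are transcribed by their own polymerase, and cox1 had 389 and 426 RPKM in IP, against 121 and 233 RPKM in input, so the IP libraries also held RNA that RNAPII does not make. XUT0001 was higher in IP by limma (1.99, adjusted p = 0.0102) and lower by edgeR with TMM (-1.70).

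Among members called higher by limma with at least 1 RPKM in a group, the smallest changes were those of XUT0352 (0.83), XUT0860 (0.86) and XUT0756 (0.89). XUT0352 had 17 and 7 reads in IP, against 2 and 3 in input, XUT0860 had 4 and 6 in IP and 0 and 2 in input, and XUT0756 had 5 and 3 in IP and 0 and 1 in input. All lie whole over an annotated ncRNA and come to about 1 RPKM in IP. Each call was lost when some single library was left out.

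Solo XUTs over ncRNAs with a name were mostly low. Of the 12 with such a name, XUT0440 over nam3 was the highest, followed by XUT0988 over SPNCRNA.1343, with 12.3 and 8.51 RPKM in IP and 0.370 and 0.0856 RPKM in input. XUT0278 over meu11 had 5.71 and 3.32 RPKM in IP. XUT0013 over meu3 and XUT0953 over meu19, named for RNAs that accumulate in meiosis, had 1 IP read each.

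At the 50-nt limit of the rule, the members just inside and the XUTs just outside differed in that both outside carry a tRNA and neither inside does. XUT1107 overlaps the amino acid permease gene SPBC15C4.04c by 49 nt and had 25 and 28 reads in IP and 2 in each input library. XUT1263 overlaps vma10, a V-type ATPase subunit gene, by 46 nt and had 24 and 20 reads in IP, against 2 and 1 in input. Just outside, XUT0133 (54 nt) had 611 and 522 reads in IP, against 350 and 630 in input, and XUT0426 (59 nt) had 1119 and 1141 in IP and 1464 and 1865 in input. XUT0133 carries tRNA-Gln and XUT0426 carries tRNA-Asn.

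The genes of the decay pathway that acts on XUTs were all transcribed in these cells. Exo2 degrades RNA from the 5′ end once the decapping enzyme Dcp2 and its cofactors have removed the cap. All 8 genes listed (exo2, dcp1, dcp2, edc3, ste13, lsm1, pdc1, pdc2) were higher in IP by limma, with 92.8% of all units higher, and edgeR, which called 14.7% of all units in each direction, called 2 higher (dcp1 and pdc1) and 0 lower. exo2 had 25.1 and 26.5 RPKM in IP and 1.44 and 2.65 RPKM in input, close to the median gene.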

How the data were processed

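Titles and sample types gave 2 IP and 2 input NET-seq libraries, numbered by the same labels. The authors mapped 50-nt reads uniquely with Bowtie (up to 2 mismatches) to ASM294v2 and deposited a signal: read counts per feature and strand normalized on uniquely mapped reads, and the same per nucleotide. How a read over several features was counted is not given in the sources used here. The authors' pooled columns were not used. Of 19343 rows, 9111 units were kept, leaving out 10204 CDS segments and 28 repeated entries.

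In each library 100% of the deposited values were whole multiples of 1 read (relative tolerance 0.001), so whole reads were recovered. RPKM was anchored so that IP replicate 1 has 7100000 reads, the smallest total the study states, and absolute levels rest on that anchor. The floor was 3 reads. The 95% intervals and the floor account for counting error alone, as PCR copies were not marked by molecular identifiers.

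IP was tested against input by limma with trend on log2(RPKM + 1), over 8912 units with a read, at a Benjamini-Hochberg adjusted p of 0.05. The design had assumed values already in RPKM. edgeR with TMM on the recovered reads called 1312 units higher and 1312 lower. DESeq2, centring on genes, quantile normalization, other pseudocounts, filters, thresholds and distances, and leaving out each library were alternatives. The titles of input and IP libraries share their replicate numbers, and the study made NET-seq libraries from 2 biological replicates. Deviations of same-numbered libraries from their group means correlated by 0.0593 over all units, 0.163 over genes and 0.0018 over solo XUTs. Tests were checked on simulated counts, for better-covered units and with no general shift between IP and input. That check therefore does not cover low input counts or the choice of scaling. The p-values measure the spread between these 2 biological replicates a group.

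Named members were the 8 highest in IP, all with 1 RPKM or more in input, the 5 largest and 5 smallest called changes, the 3 highest of each positional class, and those nearest the overlap limit. The members, lists and positional classes were chosen with earlier results of these data known. The groups sharing tRNAs, genes or pseudogenes, the members near chromosome ends and the named ncRNAs were added after values were seen. Versions were R 4.3.3, limma 3.58.1, edgeR 4.0.16, DESeq2 1.42.0, matplotlib 3.10.9, scipy 1.17.1, pandas 2.3.3, numpy 2.4.6 and Python 3.11.15. Sequences and gene products came from RefSeq.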

Additional observations from a re-analysis of the deposited data

How the results depend on the processing

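The calls of solo XUTs depended on scaling. Higher and lower counts were 338 and 2 in limma, 18 and 346 when centred on the median gene, 34 and 12 after quantile normalization, 28 and 12 in edgeR with TMM, 18 and 11 in DESeq2, and 30 and 11 in edgeR with the replicate block. Over all units they were 8270 and 82, 819 and 4859, 916 and 703, 1312 and 1312, 722 and 1135, and 1449 and 1401 in the same order. The centred calls carry the limit of the added 1 RPKM given above. limma with the replicate block called 370 solo XUTs higher and 3 lower, with the same median change as limma without it. The median change of 1.56 became -1.94 when centred, -0.12 after quantile normalization, 1.66 in edgeR with TMM, 4.52 with library totals, 0.40 in DESeq2 and 1.72 in edgeR with the block, and 3.80, 0.30, 2.04 and 1.48 with a pseudocount of 0.1 or 10 RPKM, a minimum of 1 RPKM or no filter. Members with no shared nucleotide gave 134 higher, 0 lower and a median of 1.37. Alternatives chosen after seeing the data gave 0 lower without tRNA-sharing members and a median of 1.48 without members in genes. Leaving out single libraries gave 1 to 4 lower solo XUTs, 271 to 362 higher, 42 to 117 units lower and a median of 1.53 to 1.62. The changes of XUT0352, XUT0860 and XUT0756 turned negative when centred (-2.67, -2.65, -2.62), after quantile normalization (-0.94, -0.61, -0.47), in edgeR (-1.33, -1.23, -0.57), in DESeq2 (-1.44, -1.20, -0.68) and in edgeR with the block (-1.51, -1.07, -0.63).

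The share above 1 RPKM (71.8%) was 69.5 to 72.5% in single IP libraries, 59.4% without shared nucleotides, 69.3% without members in genes, and 83.6% or 53.1% at 0.5 or 2 RPKM. The median IP level (2.30 RPKM) was 2.24 to 2.25 RPKM in single libraries, 1.58 without shared nucleotides, 2.20 with no opposing overlap at all or without tRNA-sharing members, and 1.99 without members in genes. Solo minus antisense (-0.20) was -0.32 to -0.18 in single libraries and turned to 0.093 over units of I and II more than 100 kb from an end, an alternative chosen after seeing the data. Downstream minus other (1.02) was 1.03 to 1.17 in single libraries, 1.31 with no opposing overlap, 1.30 with a pseudocount of 0.1 RPKM, and 1.99 or 0.89 for a distance of 200 or 1000 nt. The ratio of downstream XUT to gene (-1.64) was -2.20 without shared nucleotides. That of divergent XUT to gene (-3.01) was -3.04 to -3.01 in single libraries, -3.09 or -2.94 at 200 or 1000 nt, and -3.25 without shared nucleotides. The cause of these shifts was not tested. With 369 members at 3 or fewer reads in both input libraries, depth limits every input level and ratio, and with 2 libraries a group an exact permutation test cannot reach 0.05.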
